A study of Mus musculus with 435 samples.

Results

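Apoa1, Apoa2, Apoc3 and Apoe encode 4 of the proteins that coat the lipoprotein particles of the blood, and their transcripts were followed in the livers of 2 mouse strains on 2 diets. They were chosen by symbol in the probe-to-gene table that came with the arrays, where 4 of the 14711 probes with 1 symbol carry these names, 1 probe for each gene. The probes are number 11463 for Apoa1, 13015 for Apoa2, 14797 for Apoc3 and 11466 for Apoe. Liver RNA of C57 mice on a high-fat diet, C57 mice on a low-fat diet, A/J mice on a high-fat diet and A/J mice on a low-fat diet was hybridised to 435 spotted arrays, at week 0, week 1 and weeks 3 to 11. Per the labels, liver RNA carried the dye Cy5 and was set against a Cy3 reference pooled from 10 tissues of C57 mice, of which liver made up 26%. Both strains are inbred and neither carries a transgene in the labels. The substrain of C57, the sex and age of the mice, the fat content of the diets and which arrays share a mouse are not given in the sources used here, so p-values measure the spread between these samples, which may be technical.

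Apolipoproteins are made mainly by hepatocytes, with the intestine a further source, and are secreted on lipoprotein particles. Some are structural, some switch the enzymes that act on the particle on or off, and some are ligands for the receptors that clear it. Apoa1 is the main protein of high-density lipoprotein (HDL) and activates the cholesterol-esterifying enzyme LCAT. Apoa2 is the other abundant HDL protein. Apoc3 slows the clearance of triglyceride-rich particles and inhibits lipoprotein lipase. Apoe is the ligand through which remnant particles bind receptors of the LDL receptor family, and is also made by macrophages and astrocytes.

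In the RefSeq gene table (assembly GRCm38.p6), Apoa1 and Apoc3 are next to each other among the protein-coding genes of chromosome 9, followed by Apoa4 and Apoa5. Apoe is next to Apoc1 on chromosome 7, with Apoc4 beyond it, and Apoa2 is on chromosome 1 between Tomm40l and Fcer1g. RefSeq promoter windows were found for 3 of the 4 genes. RefSeq lists 1 window for Apoa1, 2 for Apoa2 and 3 for Apoe, and the first of each gene was printed and searched. The printed windows are each 300 bases long and run from upstream of the gene's start to just within it, 5′ to 3′ on the gene's own strand. Their positions on GRCm38.p6 are chr9:46228380-46228679 on the plus strand for Apoa1, chr1:171224804-171225103 on the plus strand for Apoa2 and chr7:19699139-19699438 on the minus strand for Apoe. Capitals mark the motif matches found.
Apoa1: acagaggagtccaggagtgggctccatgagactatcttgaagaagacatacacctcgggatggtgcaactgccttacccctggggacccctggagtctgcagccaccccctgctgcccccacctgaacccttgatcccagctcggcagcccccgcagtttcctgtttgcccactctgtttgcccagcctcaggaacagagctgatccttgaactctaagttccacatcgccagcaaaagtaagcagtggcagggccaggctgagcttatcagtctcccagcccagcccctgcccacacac
Apoa2: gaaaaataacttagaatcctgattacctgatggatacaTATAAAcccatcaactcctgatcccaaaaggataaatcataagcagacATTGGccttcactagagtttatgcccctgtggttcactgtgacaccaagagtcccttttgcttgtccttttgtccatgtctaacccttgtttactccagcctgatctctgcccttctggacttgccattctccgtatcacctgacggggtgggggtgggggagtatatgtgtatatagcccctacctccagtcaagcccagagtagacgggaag
Apoe: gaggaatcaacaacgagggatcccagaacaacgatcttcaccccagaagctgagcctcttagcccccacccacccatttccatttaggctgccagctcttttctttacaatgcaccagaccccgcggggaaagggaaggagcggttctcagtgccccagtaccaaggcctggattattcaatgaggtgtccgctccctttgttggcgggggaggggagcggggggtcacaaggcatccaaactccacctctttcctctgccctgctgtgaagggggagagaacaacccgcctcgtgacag
Each window was searched on both strands for 6 motifs. General promoter motifs were the TATA box, TATAAA, and the box known as CCAAT. Motifs bound by nuclear receptors were a half-site with the letters AGGTCA and the beginning of an element that HNF4 binds, which reads CAAAGT. The half-site of the hepatocyte factor HNF1 was searched as GTTAAT, and the E-box, which factors of the helix-loop-helix class bind, was searched as CACGTG. The window of Apoa2 held the TATA box letters at base -212 from the gene's start and those of the CCAAT box at base -164 on the opposite strand. These matches do not overlap. The CCAAT match is printed as its complement. Neither the printed window of Apoa1 nor that of Apoe held any of the 6 motifs in these letters. The further windows listed for Apoa2 and Apoe were not searched. Of all 32851 promoter windows in the table, 13.6% held the TATA box letters, 37.4% those of the CCAAT box, 16.3% the nuclear receptor half-site, 14.4% the start of the HNF4 element, 7.10% the HNF1 half-site and 7.15% the E-box. A match describes the letters and not a working site.

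The comparisons over time used 350 arrays of 9 weeks (1, 3 to 7 and 9 to 11). Of the 40 arrays of week 8, 28 correlated with the median profile of all arrays at 0.0465 to 0.0927 and were unlike the rest, among them 9 of C57 high-fat, 9 of A/J high-fat and 10 of A/J low-fat mice and 0 of C57 low-fat mice. Week 8 was left out for that reason, as were 4 unlike arrays of other weeks. Apoe was measured on 2 and Apoc3 on 13 of the 28 unlike arrays of week 8, against 12 of the 12 other arrays of that week for each gene. The 4 genes were measured on most arrays of the 9 weeks, Apoa1 on 341, Apoa2 on 349, Apoc3 on 350 and Apoe on 345 of the 350 arrays. All 4 probes passed the filter on missing values, with 7643 probes tested in all. The values are ratios, so how bright each spot was is not known here. In the comparisons over weeks the SE comes from the spread of the weekly group means.

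All 4 transcripts were higher in liver than in the reference in each strain and diet. Values are log2 ratios of liver over reference, centred so that the median tested probe of an array is 0. A transcript found in no reference tissue but liver would have a log2 ratio of 1.94 before scaling and centring, since liver is part of the reference. The mean log2 ratio of Apoa1 over 9 weekly means was 1.72 ± 0.47 in C57 mice on the high-fat diet, 1.58 ± 0.48 in C57 mice on the low-fat diet, 1.80 ± 0.75 in A/J mice on the high-fat diet and 1.86 ± 0.82 in A/J mice on the low-fat diet (SD, n = 9 weeks each). Those of Apoa2, in the same order of groups, were 1.19 ± 0.40, 0.94 ± 0.31, 1.07 ± 0.34 and 1.09 ± 0.28. Apoc3 had means of 1.36 ± 0.34 in C57 high-fat, 1.03 ± 0.29 in C57 low-fat, 1.17 ± 0.42 in A/J high-fat and 1.09 ± 0.38 in A/J low-fat livers. The means of Apoe were 1.68 ± 0.68 in C57 high-fat, 1.29 ± 0.59 in C57 low-fat, 1.37 ± 0.59 in A/J high-fat and 1.23 ± 0.62 in A/J low-fat livers. For Apoa1, Apoa2 and Apoe the 4 means lie closer together than the SD over weeks of any group. Ratios of different probes are not levels of 1 gene against another and are not ranked.

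Single arrays spread widely around these means. Apoc3 ran from 0.18 through a median of 1.35 to 2.51 over 88 C57 high-fat arrays and from -0.05 through 1.02 to 2.05 over 87 C57 low-fat arrays. In A/J livers Apoc3 ran from 0.10 through 1.15 to 2.55 over 87 high-fat arrays and from -0.03 through 1.06 to 2.69 over 88 low-fat arrays. The groups therefore overlap over nearly their whole range. Apoe ran from -0.01 through a median of 1.43 to 4.88 over 86 C57 high-fat arrays and from -0.40 through 1.00 to 3.78 over 87 C57 low-fat arrays. Its A/J values ran from -0.19 through 1.14 to 3.32 over 87 high-fat arrays and from 0.03 through 1.14 to 3.33 over 85 low-fat arrays. Over the 16 combinations of gene, strain and diet, 96.5% to 100% of arrays were above 0, and without centring the medians were 0.92 to 1.85.

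By value, the 4 genes moved further between weeks than between strains or diets. The mean of the 4 groups ran from 0.80 at week 3 to 2.81 at week 6 for Apoa1, a 4.03-fold range, and from 0.72 at week 3 to 1.69 at week 6 for Apoa2. Apoc3 ran from 0.64 at week 9 to 1.54 at week 6, and Apoe from 0.65 at week 9 to 2.52 at week 4. At week 6 Apoa1 averaged 2.29 ± 0.35 in C57 high-fat (n = 10), 2.58 ± 1.10 in C57 low-fat (n = 8), 2.94 ± 0.75 in A/J high-fat (n = 10) and 3.42 ± 0.97 in A/J low-fat livers (SD over arrays, n = 10). At week 3 the same groups averaged 0.95 ± 0.60 (n = 9), 1.06 ± 0.58 (n = 10), 0.78 ± 0.45 (n = 9) and 0.40 ± 0.32 (n = 9). The SD of the weekly means was 0.60, 0.30, 0.33 and 0.57 for Apoa1, Apoa2, Apoc3 and Apoe, against an SD between arrays of a group of 0.72, 0.54, 0.43 and 0.66. The number of probes measured on an array moved with these values: its median was 8171.5 at week 6 and 13366 at week 9. Across arrays it correlated with Apoa1 at r = -0.56, Apoa2 at -0.42, Apoc3 at -0.41 and Apoe at -0.30, as a description over 341 to 350 arrays. Its part in the weekly levels was not tested, and week and hybridisation cannot be told apart.

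**Figure D1:**
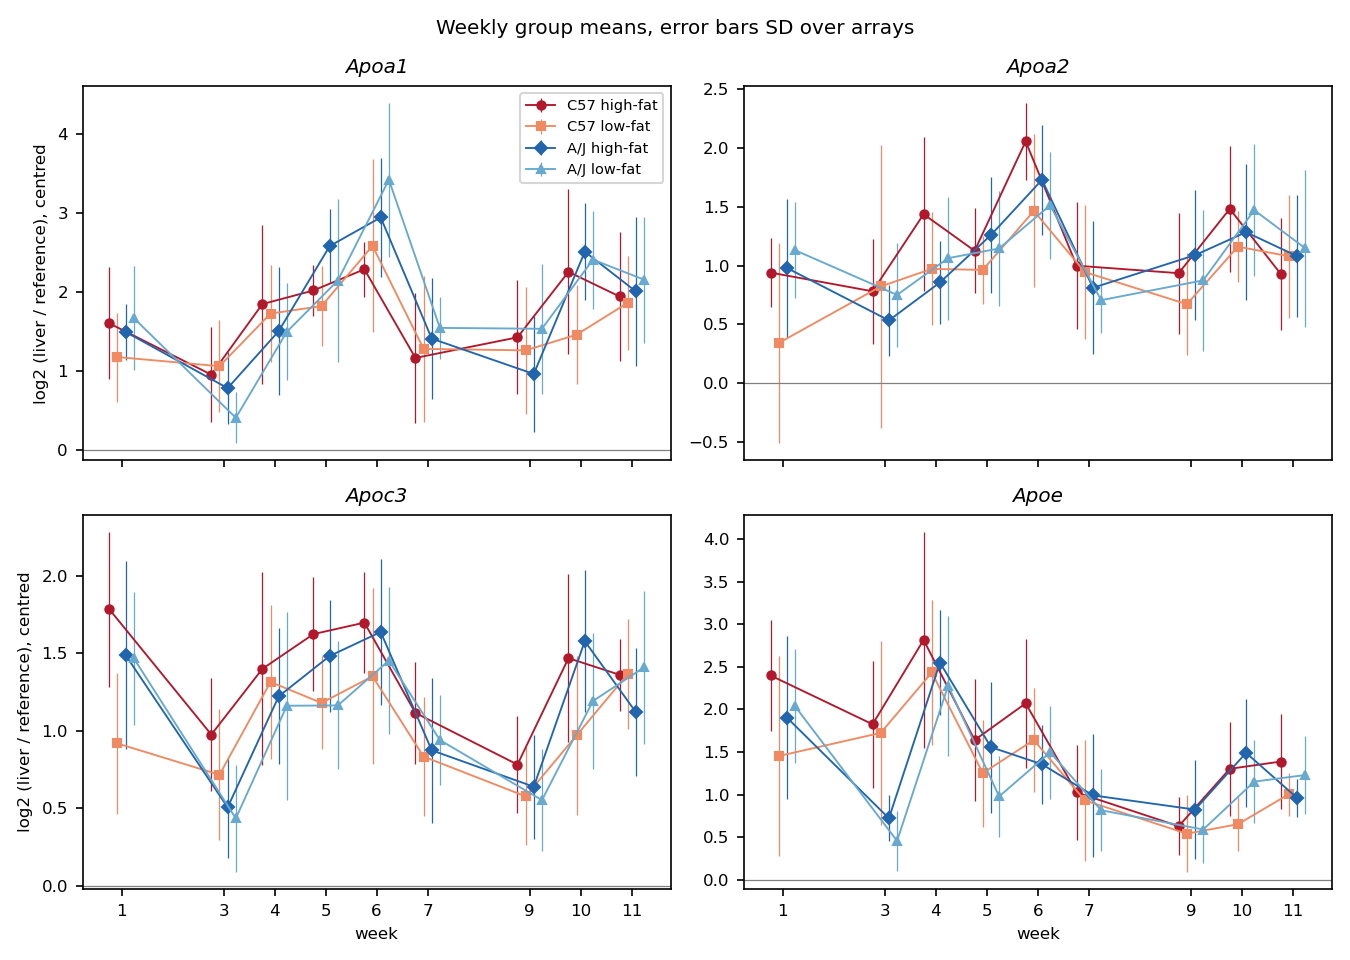
Centred log2 ratio of liver over reference (y axis) against week (x axis, 1 to 11 without 2 and 8) for each gene, with points at group means and bars for the SD over arrays. The weekly means of the 4 groups move partly together, with exceptions such as Apoe from week 1 to week 3 (1.45 and 1.72 in C57 low-fat, 1.90 and 0.72 in A/J high-fat livers), and the highest mean of 4 groups lies at week 6 for Apoa1 (2.81), Apoa2 (1.69) and Apoc3 (1.54) and at week 4 for Apoe (2.52).

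In C57 livers the high-fat minus low-fat differences of Apoc3 and Apoe were positive in most weeks, but no gene of the 4 passed the test over all probes. Apoc3 had a log2 difference of 0.33 ± 0.08 (limma SE, 95% interval 0.17 to 0.49, adjusted p = 0.0924), with a higher high-fat mean in 8 of 9 weeks. Apoe had a difference of 0.38 ± 0.13 (0.12 to 0.65, limma adjusted p = 0.470), with a higher high-fat mean in 9 of 9 weeks. By its p Apoc3 was at place 20 of 7643 probes. The difference of Apoa2 was 0.25 ± 0.09 (0.07 to 0.43, limma adjusted p = 0.484, 7 of 9 weeks), and that of Apoa1 0.14 ± 0.13 (-0.13 to 0.41, limma adjusted p = 0.959, 6 of 9 weeks). So 0 of the 4 were called, where 15 of 7643 probes were (0.196%). At an unadjusted p under 0.05, 483 probes passed (6.32%), Apoa2, Apoc3 and Apoe among them.

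In C57 the differences of Apoa2, Apoc3 and Apoe were largest at week 1, and that of Apoa1 (0.80) at week 10. Single arrays carry part of these values. Without 1 C57 low-fat array at -1.96 the week 1 difference of Apoa2 was 0.34 in place of 0.60, below its week 6 difference of 0.59, and without 1 C57 high-fat array at 4.28 the week 10 difference of Apoa1 was 0.51 (leaving out 1 array at a time was added after the data were seen). Apoc3 at week 1 ran from 0.86 through a median of 1.90 to 2.51 in C57 high-fat livers, against 0.13 through 0.99 to 1.54 in C57 low-fat livers (n = 10 each). Its group means were 1.78 ± 0.50 and 0.92 ± 0.46, and the ranges overlap. Apoe at week 1 ran from 1.40 through 2.55 to 3.23 in C57 high-fat livers, against -0.40 through 1.09 to 2.79 in C57 low-fat livers (n = 10 each). Over the 9 weeks the difference of Apoc3 lay between -0.0038 at week 11 and 0.87 at week 1, and that of Apoe between 0.09 at week 9 and 0.95 at week 1. Leaving out 1 array turned the difference of Apoe to -0.07 at week 3 and -0.03 at week 7. Tested week by week on single arrays, 0 of 36 tests of these genes in C57 were called by limma, with a lowest adjusted p of 0.401 and 5 of 36 at an unadjusted p under 0.05. Of all probes they called 0.0104% at week 6, 0.00712% at week 9, 0.00802% at week 10 and 0% at each other week. The share of all probes at an unadjusted p under 0.05 ran from 3.78% at week 3 to 11.5% at week 6.

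The result for Apoc3 was close to the threshold of 0.05. Without week 11 it passed, at 0.37 (limma adjusted p = 0.0482), while leaving out other weeks gave adjusted p-values of up to 0.302 and differences down to 0.26. With single arrays in place of weekly means as the replicates both Apoc3 (limma adjusted p = 0.000273) and Apoe (limma adjusted p = 0.0148) passed. That setting called 139 of 7643 probes, against 15 with weekly means. It treats each array as independent, and which arrays share a mouse is not known. Quantile normalization between arrays gave smaller differences, 0.23 for Apoc3 (limma adjusted p = 0.243), 0.24 for Apoe and 0.11 for Apoa2, and -0.08 for Apoa1. With week 8 and the unlike arrays included the C57 differences were 0.24 ± 0.12 for Apoc3 (limma adjusted p = 0.817), 0.14 ± 0.12 for Apoa2 and 0.09 ± 0.19 for Apoa1, and Apoe was measured on too few arrays of week 8 to be tested.

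**Figure D2:**
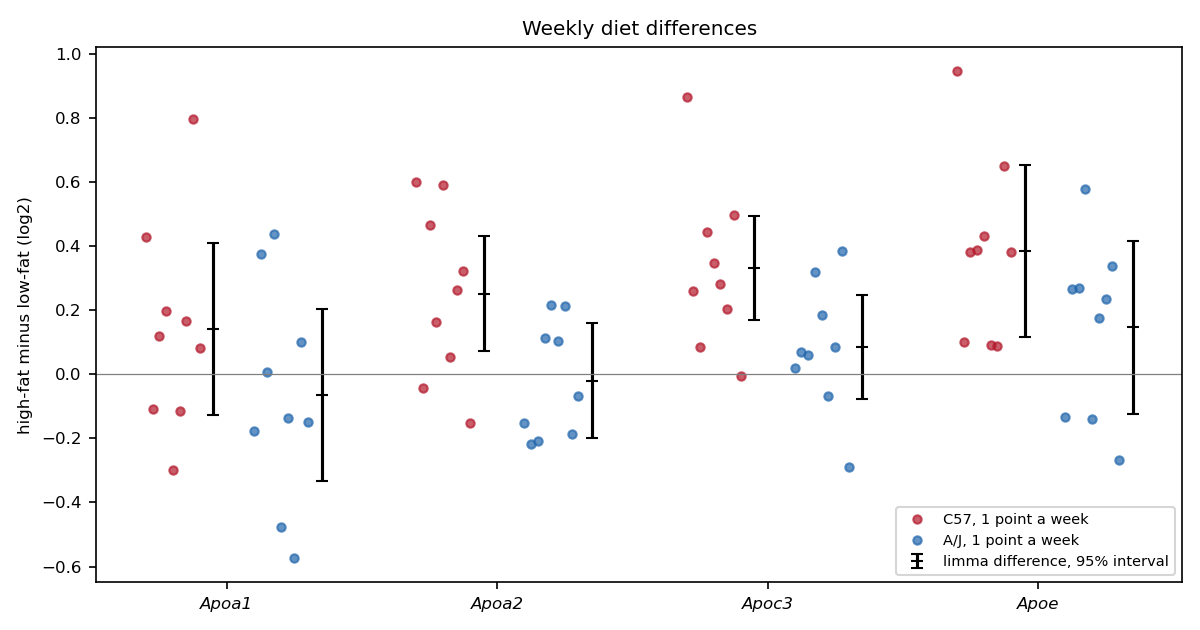
High-fat minus low-fat log2 difference of each gene (y axis) at each of 9 weeks, C57 left and A/J right within a gene, weeks running left to right, with the limma difference and its 95% interval in black. Apoe was above 0 in 9 of 9 weeks in C57 and 6 of 9 in A/J, and the A/J intervals of the 4 genes all include 0.

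In A/J livers the 4 genes had smaller differences between the diets, and 0 of 4 were called. The limma differences were -0.07 ± 0.13 for Apoa1 (95% interval -0.33 to 0.20), -0.02 ± 0.09 for Apoa2 (-0.20 to 0.16), 0.09 ± 0.08 for Apoc3 (-0.08 to 0.25) and 0.15 ± 0.13 for Apoe (-0.12 to 0.42). With week 8 and the unlike arrays included they were -0.07, -0.08 and 0.15 for Apoa1, Apoa2 and Apoc3. The lowest limma adjusted p was 0.995, and 2 of 7643 probes were called in this comparison (0.0262%, with 414 at an unadjusted p under 0.05). The high-fat mean was higher in 4 of 9 weeks for Apoa1 and Apoa2, 7 of 9 for Apoc3 and 6 of 9 for Apoe. In the weekly tests in A/J, 0 of 36 were called and 0 of 36 had an unadjusted p under 0.05, while of all probes 0.853% were called at week 4, 0.00684% at week 9, 0.00759% at week 11 and 0% at each other week. In A/J the share of all probes at an unadjusted p under 0.05 ran from 4.73% at week 11 to 19.1% at week 4. Whether the strains differ in their response was tested directly. The C57 diet difference minus the A/J diet difference was 0.21 ± 0.19 for Apoa1, 0.27 ± 0.12 for Apoa2, 0.25 ± 0.11 for Apoc3 and 0.24 ± 0.19 for Apoe, with limma adjusted p-values of 1.00. Here 0 of 7643 probes were called (0%), and 204 had an unadjusted p under 0.05, Apoa2 and Apoc3 among them. A difference between the strains in their response to diet is thus not shown for these genes.

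Between the strains, C57 minus A/J, 0 of the 4 genes were called on either diet. On the high-fat diet the differences were -0.08 ± 0.13 for Apoa1, 0.12 ± 0.09 for Apoa2, 0.18 ± 0.08 for Apoc3 (limma adjusted p = 0.247) and 0.30 ± 0.13 for Apoe (limma adjusted p = 0.251), where 301 of 7643 probes were called (3.94%). On the low-fat diet they were -0.28 ± 0.13 for Apoa1 (limma adjusted p = 0.382), -0.15 ± 0.09 for Apoa2, -0.06 ± 0.08 for Apoc3 and 0.07 ± 0.13 for Apoe, where 183 probes were called (2.39%). Apoa1 was thus lower and Apoe higher in C57 on both diets by value, with none past the test. With single arrays as the replicates Apoc3 (limma adjusted p = 0.0463) and Apoe (limma adjusted p = 0.0265) passed on the high-fat diet. That setting called 852 of 7643 probes there, against 301 with weekly means, and which arrays share a mouse is not known. The values for Apoa1 on the high-fat diet and Apoc3 on the low-fat diet changed sign with group medians in place of means, to 0.0013 and 0.05.

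No straight line against week passed for any of the 4 genes. The steepest was that of Apoe in C57 low-fat livers, at -0.12 ± 0.04 per week (limma adjusted p = 0.198). There 0% of 7643 probes were called, and 1202 had an unadjusted p under 0.05, Apoe among them. The A/J low-fat line of Apoe was -0.07 ± 0.05 per week. The diet difference of Apoc3 in C57 changed by -0.04 ± 0.03 per week (limma adjusted p = 0.999, 0% called). For the diet difference in A/J the 4 slopes lay between -0.03 and 0.02 per week, with 0 of the 4 and 0.0131% of probes called.

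The labels give a diet at week 0 too, and there the A/J means stood further apart than at any later week compared, for each of the 4 genes. Apoe ran from 1.90 through a median of 3.28 to 4.24 over 7 A/J high-fat arrays, against 1.32 through 2.05 to 2.41 over 6 A/J low-fat arrays. Of the high-fat arrays 6 of 7 were above every low-fat array. The means were 3.29 ± 0.81 and 1.94 ± 0.45 (SD), a difference of 1.35 (two-sided exact permutation test p = 0.00699, 0.0627 adjusted over 16 tests of week 0). Apoa1 averaged 2.27 ± 0.57 in A/J high-fat (n = 9) and 1.40 ± 0.66 in A/J low-fat livers (n = 8, exact permutation p = 0.0118, adjusted 0.0627). Apoc3 averaged 1.42 ± 0.34 in A/J high-fat (n = 10) and 0.94 ± 0.38 in A/J low-fat livers (n = 9, exact permutation p = 0.0116, adjusted 0.0627). Apoa2 differed by 0.31 (exact permutation p = 0.244, n = 10 and 8). In limma over the 5414 probes tested at week 0, the 4 genes had adjusted p-values of 0.429 to 0.733, and 0 probes were called (0%). An unadjusted p under 0.05 was reached by 543 probes, Apoc3 and Apoe among them.

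In C57 livers at week 0 the differences between the diet labels were 0.26 for Apoa1, 0.05 for Apoa2, -0.03 for Apoc3 and -0.09 for Apoe, against SDs within groups of 0.42 to 1.95. All 4 changed sign without 1 array. That of Apoa1 was -0.35 without the C57 low-fat array at -2.54, and the ranges without 1 array were -0.08 to 0.17 for Apoa2, -0.14 to 0.06 for Apoc3 and -0.56 to 0.56 for Apoe. Between the strains under the low-fat label, Apoe averaged 3.29 ± 1.03 in C57 (n = 4) and 1.94 ± 0.45 in A/J livers (n = 6), a difference of 1.35 (exact permutation p = 0.0381, adjusted 0.152). In limma 0 of the 4 genes were called between the strains at week 0, where 1.72% of probes were called under the high-fat and 0.203% under the low-fat label, nor between the diets in C57 (0% called). Week 0 arrays measured fewer probes, a median of 5007 against 11161.5 at the later weeks, and Apoe was measured on 23 of 39. After quantile normalization the A/J differences were 0.37 for Apoa1, 0.03 for Apoa2, 0.26 for Apoc3 and 0.18 for Apoe.

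**Figure D3:**
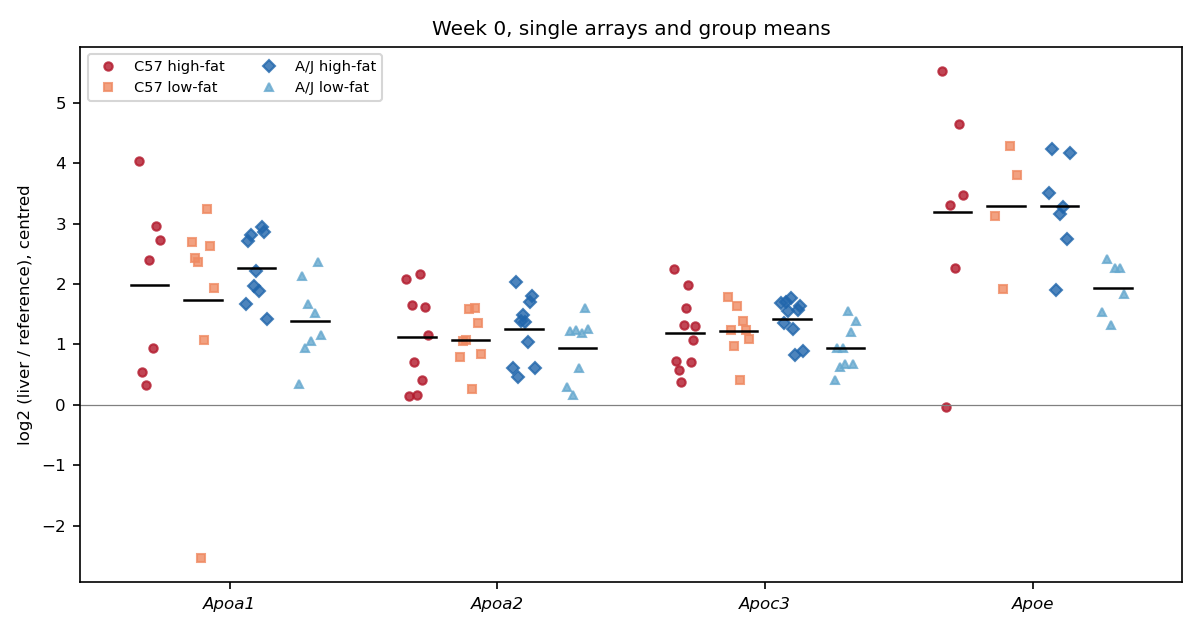
Centred log2 ratio (y axis) of each gene on single week 0 arrays, by strain and diet label, with group means as black lines. For Apoe, 6 of 7 A/J high-fat arrays lie above the 6 A/J low-fat arrays, and 1 C57 low-fat array has an Apoa1 value of -2.54.

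The 4 genes varied together between arrays of the same strain, diet and week. With group means removed, Apoc3 and Apoe had r = 0.63 and rho = 0.65 over 345 arrays, and r = 0.63 without the 2 arrays farthest from the median. Apoa1 and Apoc3, gene neighbours, had r = 0.49 and rho = 0.49 (n = 341, 0.46 without the 2). Apoa2 and Apoc3 had r = 0.46 and rho = 0.51 (n = 349, 0.52 without the 2). Apoa1 and Apoe had r = 0.42 and rho = 0.45 (n = 336, 0.44 without the 2), Apoa1 and Apoa2 r = 0.41 and rho = 0.47 (n = 340, 0.41 without the 2), and Apoa2 and Apoe r = 0.39 and rho = 0.49 (n = 344, 0.48 without the 2). With arrays next to each other in number averaged, r was 0.27 for Apoa1 and Apoa2, 0.20 for Apoa2 and Apoe and 0.57 for Apoc3 and Apoe (n = 178). Over the 6 pairs each r and each rho had a permutation p of 1e-05, adjusted 1e-05, the smallest that 100000 resamples can give. These p-values treat each array as independent, and which arrays share a mouse is not known. With arrays next to each other in number averaged, the highest adjusted permutation p of the 6 pairs was 0.00987 (Apoa2 and Apoe). Within single weeks, an alternative added after the data were seen, all 6 pairs had r above 0 in 9 of 9 weeks. Apoc3 and Apoe had a weekly r of 0.45 to 0.87 with a median of 0.66, while the lowest weekly r of the other 5 pairs lay between 0.0014 and 0.14.

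**Figure D4:**
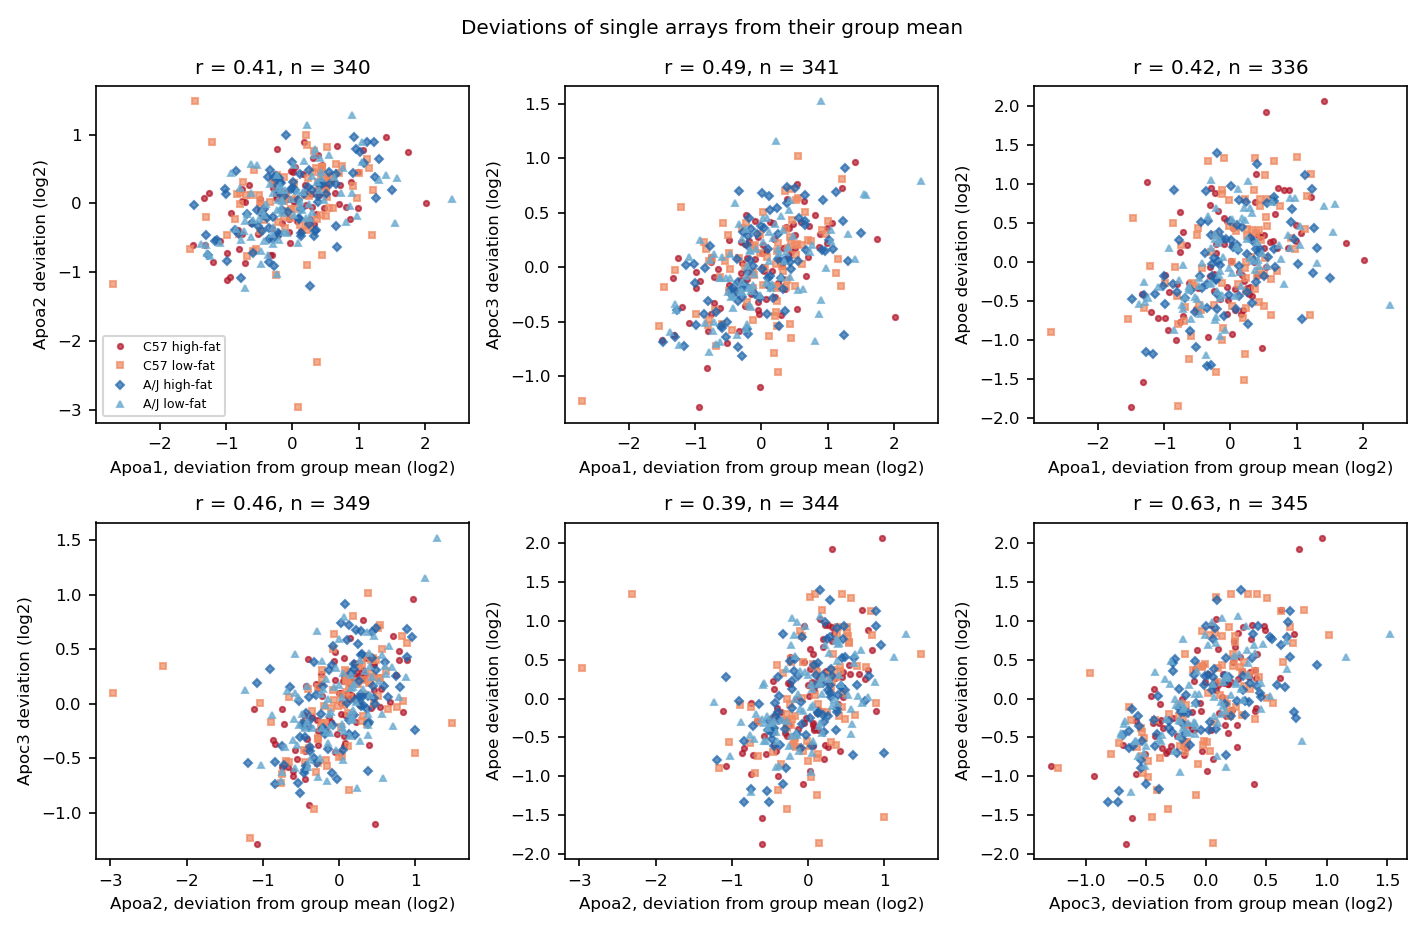
Deviations of single arrays from their group mean (log2) for each of the 6 pairs of genes, 1 point an array, coloured by strain and diet. The points of Apoc3 and Apoe lie closest to a line (r = 0.63). Apoa2 and Apoe have the lowest r (0.39, rho = 0.49), and Apoa1 and Apoe the lowest rho (0.45).

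Measures of the array other than these 4 probes moved with these values. With the number of measured probes adjusted for, the 6 correlations were 0.33 (Apoa1 and Apoa2) to 0.61 (Apoc3 and Apoe). The mean of 12 other hepatocyte genes correlated with the deviations of Apoa1 at r = 0.52, Apoa2 at 0.53, Apoc3 at 0.43 and Apoe at 0.57. With that mean adjusted for, the 6 correlations were 0.13 (Apoa2 and Apoe) to 0.51 (Apoc3 and Apoe), and after quantile normalization 0.16 (Apoa2 and Apoc3) to 0.41 (Apoc3 and Apoe). Within C57 low-fat arrays alone Apoa1 and Apoa2 had r = 0.19 and rho = 0.33 (permutation p of r adjusted 0.0943, n = 85). Apoa2 and Apoe had r = 0.18 and rho = 0.40 there (permutation p of r adjusted 0.0958, n = 87). Across the 36 group means, as a description, r was 0.76 for Apoa1 and Apoa2 and 0.73 for Apoa1 and Apoc3. It was 0.65 for Apoa2 and Apoc3 and 0.64 for Apoc3 and Apoe. The lowest were 0.23 for Apoa1 and Apoe and 0.28 for Apoa2 and Apoe. That of Apoa1 and Apoe was 0.35 without week 4 and 0.14 without week 9. With the mean of each week removed, the 6 values in the same order were 0.16, 0.41, 0.58, 0.79, 0.34 and 0.50. The value was lower for Apoa1 with Apoa2 and higher for Apoc3 with Apoe once the week was removed.

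Set against all 7642 other tested probes, Apoc3 had the highest r with Apoe of any probe. For Apoc3, in turn, Apoe was at place 42, Apoa1 at 262 and Apoa2 at 340. For Apoa1 the other genes were at places 40 (Apoc3) and 92 (Apoe), with Apoa2 below them, and for Apoa2 at places 33 (Apoc3), 65 (Apoa1) and 86 (Apoe). The median r of all probes with each of the 4 genes was between -0.0031 and 0.02, and 1.05% to 6.92% of probes had an r of at least 0.4. These places describe the arrays and were not tested.

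**Figure D5:**
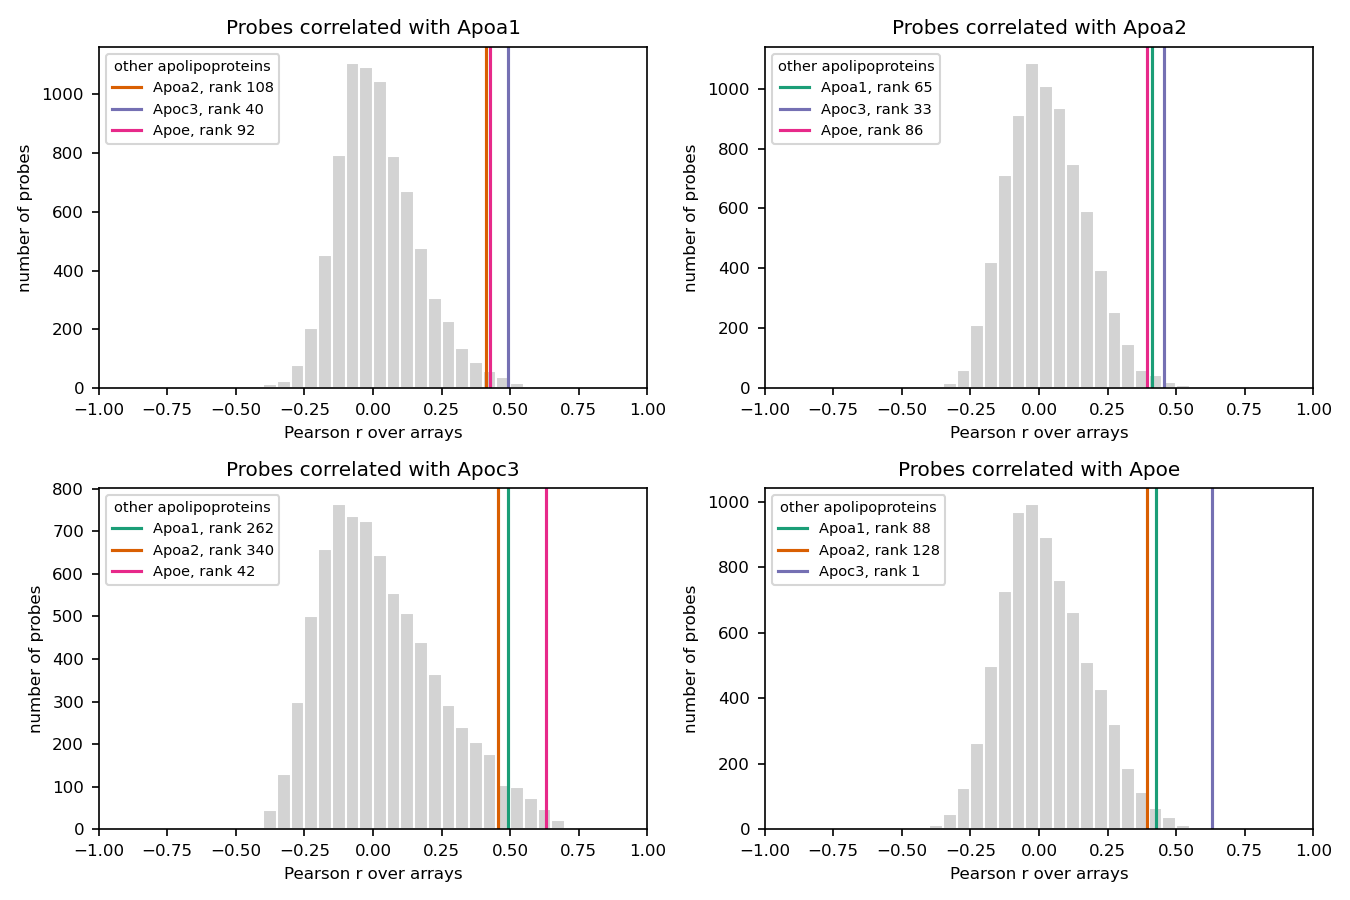
Number of probes (y axis) by Pearson r (x axis, bins of 0.05) with each gene, over deviations from group means, with the other 3 genes as vertical lines. All lines lie in the upper tail, at places 1 to 340 of 7642.

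Leaving out the 4 genes themselves, the probes most like each, by the same r, were of genes outside the apolipoprotein family. For Apoa1 they were Maea, a subunit of a ubiquitin ligase complex, at 0.69, Scrn2 at 0.69 and Trip10, which binds Cdc42, at 0.67. For Apoa2 they were the homeobox gene Nkx2-3 at 0.66, the neuronal chloride transporter gene Slc12a5 at 0.60 and Eif2b1, a subunit of a translation initiation factor, at 0.58. For Apoc3 they were Tmem225 at 0.77, the pseudouridine synthase gene Trub2 at 0.77 and the interferon-induced Ifi27l2a at 0.76. For Apoe they were Tmem225 at 0.60, the serotonin receptor gene Htr5a at 0.59 and Chpf, of chondroitin synthesis, at 0.57. Ratios of these 11 genes correlated with the number of measured probes of an array at -0.59 to -0.21, and the part of that number in the likeness was not tested.

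Other genes of lipoprotein metabolism gave 0 calls between diets in either strain or in the difference of diet differences, and 0 between strains. Of all probes 0.196% were called for the diet in C57, 0.0262% in A/J and 0% for the difference of diet differences. Between the strains 2.39% were called on the low-fat and 3.94% on the high-fat diet. For so few genes 0 calls is near these shares. Of 8 other apolipoprotein genes tested, of 13 on the array, 7 had a positive diet difference in C57 and 5 in A/J, with medians of 0.09 and 0.03, where 49.8% and 47.1% of all probes were positive. The largest in C57 were those of Apoc2, the activator of lipoprotein lipase, at 0.52 ± 0.13 (limma adjusted p = 0.116), and Apoa5 at 0.25 ± 0.20 (limma adjusted p = 0.951). Among 8 enzymes and assembly factors tested, of 13 on the array, 3 were positive in C57 and 3 in A/J (medians -0.01 and -0.06), led in C57 by P4hb, a subunit of the microsomal triglyceride transfer complex, at 0.23 ± 0.10, and Lcat at 0.14 ± 0.12. Among 5 receptors and transporters, of 12 on the array, 3 were positive in C57 and 5 in A/J (medians 0.02 and 0.15), with Cubn in C57 at 0.25 ± 0.08 (limma adjusted p = 0.293) and the sterol transporter subunit Abcg8 at 0.14 ± 0.10. Among 11 regulators, of 21 on the array, 9 were positive in C57 and 7 in A/J (medians 0.06 and 0.06). Ppara, the nuclear receptor for fatty acids, had a C57 difference of 0.51 ± 0.18 (limma adjusted p = 0.484), and Nr1h3, the oxysterol receptor LXR alpha, one of 0.20 ± 0.18.

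The liver label was checked against marker genes. Of 12 hepatocyte genes tested besides the 4, of 19 on the array, 11 were above 0, with a range of -0.06 to 1.39 and a median of 0.57. Their diet differences were positive for 8 of 12 in C57 and 4 of 12 in A/J, with medians of 0.08 and -0.07. Of the 12, 0 were called, where 0.196% of all probes were called in C57 and 0.0262% in A/J. Alb, albumin, was in C57 at -0.24 ± 0.10. Between the strains on the high-fat diet 4 of the 12 were called, where 3.94% of all probes were, Trf (-0.41) and Alb (-0.39) lower and Ahsg (0.54) and Fgb (0.38) higher in C57, and Trf was called on the low-fat diet too (-0.52, 2.39% of all probes). Of the markers of macrophages, which also make Apoe, 3 of 11 were tested, all below 0 at -1.29 to -0.28, with diet differences positive for 3 of 3 in C57 and 1 of 3 in A/J and medians of 0.09 and -0.07. The 4 stellate cell and matrix genes tested were at -0.49 to -0.19 and the 6 skeletal muscle genes at -2.75 to -0.22, with 0 calls between the diets. Fewer cells of a type and less RNA per cell cannot be told apart in whole liver, and the part of other cell types in the values of the 4 genes was not tested.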

How the data were processed

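Total liver RNA (Cy5) and pooled reference RNA (Cy3) were hybridised to spotted arrays, per the labels. The deposited values, treated as a score because 0.251% are below 0, are linear ratios of liver over reference with a mean of 1 on each array; the authors' image analysis, background step and normalization are not given in the sources used here, and scale and direction were read from the values. The log2 of each positive ratio was taken and each array centred on its median over tested probes. Of 435 arrays, 2 pairs of identical columns were counted once, leaving 433. Arrays correlating below 0.15 with the median profile, and week 8, were left out, leaving 350 arrays in 36 groups. Probes measured on at least 70% of arrays and 3 arrays of each group were tested.

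Comparisons used 1 mean per group, with the week as replicate, in limma 3.58.1 (R 4.3.3) with week and the combination of strain and diet as terms. Lines against week, single weeks and week 0 were fitted with limma, week 0 also with exact permutation tests (scipy 1.17.1). P-values were adjusted by Benjamini-Hochberg over all probes, with a threshold of 0.05. Correlations used deviations from group means and 100000 resamples. The code was tested on simulated data. The 4 genes and all lists were chosen with earlier results of these data known. Named besides the 4 are the 3 probes most like each, listed genes past the threshold, and otherwise the 2 with the largest C57 diet difference of each lipoprotein list. Marker lists of kidney (2 tested), brown fat (2) and brain (2) had 0 calls, in comparisons that called 0% to 3.94% of all probes. Those of white fat, lung and red blood cells had 0 probes tested. High-fat and low-fat arrays with the same number in their titles had r over 0.1 in 30 of 82 C57 and 14 of 77 A/J pairs. The median r was 0.04 in C57 and -0.02 in A/J. Pairs with different numbers were not compared across the diets, so whether the numbers pair the arrays was not tested.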

Additional observations from a re-analysis of the deposited data

Results flagged for a closer look

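Of 160 groups of 4 to 10 arrays, 13 had an array whose distance from its nearest neighbour was large for the group's range (Dixon's test at 95%), which is 8.13% where chance gives about 5%. For Apoa1 they were C57 low-fat arrays at -0.41 in week 3, 0.52 in week 5, -0.12 in week 6 and -2.54 in week 0, each the lowest of its group, and an A/J low-fat array at 4.56 in week 5, the highest. For Apoa2 they were C57 low-fat arrays at -1.96 in week 1 and -2.14 in week 3, and an A/J low-fat array at 2.35 in week 4. For Apoc3 they were C57 low-fat arrays at 1.74 in week 3 and 0.12 in week 6, and A/J low-fat arrays at 2.69 in week 4 and 2.57 in week 11. For Apoe it was a C57 high-fat array at 3.99 in week 6. All were kept.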

How the results depend on the processing

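Of 595 values of the 4 genes recomputed under alternatives, 564 kept their direction and side of the threshold, 5 newly passed and 26 changed sign, 0 of these past the threshold. The cause was not tested. Quantile normalization turned the C57 diet difference of Apoa1 to -0.080, its week 0 value to -0.030 and its difference of diet differences to -0.034, Apoa2 in A/J to 0.010, Apoc3 at week 0 in C57 to 0.0072 and the week 0 low-fat strain difference of Apoa2 to -0.062. Group medians turned the A/J diet difference of Apoa2 to 0.0041, the high-fat strain difference of Apoa1 to 0.0013 and the low-fat strain difference of Apoc3 to 0.046, which was 0.13 over all 10 weeks. The low-fat slope of Apoc3 in A/J was -0.0029 with the unlike arrays kept. Single arrays as replicates gave 2 of the 4 genes as called in the C57 diet comparison and 2 in the high-fat strain comparison. Of all 7643 probes that setting called 139 and 852 in these comparisons. Within C57 low-fat arrays r fell to 0.19 (Apoa1 and Apoa2) and 0.18 (Apoa2 and Apoe), with rho at 0.33 and 0.40.

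Leaving out 1 week at a time (leave-one-out) gave 0 to 1 genes called for the C57 diet, 1 without week 11. It gave A/J diet differences of Apoa2 of -0.049 to 0.0048, low-fat strain differences of -0.10 to 0.00033 for Apoc3 and -0.084 to 0.15 for Apoe. It gave slopes per week of the diet difference of -0.018 to 0.053 (Apoa1, C57), -0.044 to 0.021 (Apoe, C57), -0.026 to 0.022 (Apoc3, A/J) and -0.039 to 0.025 (Apoe, A/J), and slopes of the low-fat mean of -0.018 to 0.026 (Apoc3, C57), -0.029 to 0.040 (Apoc3, A/J) and -0.00041 to 0.031 (Apoa2, A/J). Over all probes it called 6 to 19 for the C57 diet, 0 to 2 for the A/J diet, 0 to 1 for the A/J slope of the diet difference, and 0 to 1 (A/J) and 0 to 2 (C57) for the low-fat slopes.

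Probes called moved by over 1.5 times in these settings. Over all 10 weeks they were 2 (C57 diet), 0 (A/J diet), 55 (high-fat strain) and 36 (low-fat strain). With single arrays they were 139, 33, 852 and 554, and 3 for the difference of diet differences. With group medians the A/J diet had 1. Quantile normalization gave 4 for the A/J diet, 281 for the low-fat strain comparison, 0 for the A/J slope of the diet difference, 32 (A/J) and 5 (C57) for the low-fat slopes, and at week 0 1 for each diet comparison, 53 for the high-fat and 19 for the low-fat strain comparison. Without centring they were 1 for the A/J low-fat slope, and at week 0 3 for the A/J diet and 19 for the low-fat strain comparison. Averaging arrays next to each other in number gave 7 for the low-fat strain comparison at week 0.

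Leaving out 1 array at a time (leave-one-out) gave C57 diet differences at week 0 of -0.35 to 0.54 (Apoa1), -0.081 to 0.17 (Apoa2), -0.14 to 0.064 (Apoc3) and -0.56 to 0.56 (Apoe), and -0.084 to 0.066 for Apoc3 at week 11, -0.068 to 0.25 for Apoe at week 3 and -0.033 to 0.22 for Apoe at week 7.

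The replicate block, on arrays sharing a number, called 0 probes for the C57 diet, 0 for the A/J diet and 3 at week 0 in A/J, and 0 of the 4 genes. The numbers are not shown to pair the arrays.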
